A study of Mus musculus with 12 samples.

Results

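Glucocorticoid activation and response genes were followed in the outer kidney cortex of mice that carry a HIF2α transgene. The 9 genes were taken by symbol: the enzymes Hsd11b1, Hsd11b2 and H6pd, the receptors Nr3c1 and Nr3c2, and the response genes Fkbp5, Sgk1, Tsc22d3 and Zbtb16. All 9 were found among the 27412 genes of the deposited table, and all 9 passed the filter on low counts that left 19564 genes for testing. The comparison has 6 animals, each giving RNA from both kidneys, so that 12 libraries were sequenced. The WT group was 3 untreated wild-type C57BL/6 males (animals 1, 2 and 3), and the HIF2aM3 group was 3 untreated C57BL/6 males positive for the γ-HIF2αM3 transgene (animals 17-51, 17-53 and 17-56). The labels give no age. The γ in the name stands for the γ-glutamyl transferase promoter, which is active in proximal tubule cells, and the M3 form of HIF2α is a mutant made to escape oxygen-dependent control. The 3 transgenic animals share the prefix 17, and the labels do not say whether this marks 1 founder line. The tissue was a thin slice of outer cortex, in which fewer cells of a type and less RNA per cell cannot be told apart.

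Glucocorticoids act on a cell only in their active form, which is corticosterone in mice. The enzyme 11β-hydroxysteroid dehydrogenase type 1 (Hsd11b1) regenerates corticosterone from its inactive 11-keto form in the endoplasmic reticulum, using NADPH that hexose 6-phosphate dehydrogenase (H6pd) makes there. The type 2 enzyme (Hsd11b2) does the reverse in the aldosterone-sensitive distal nephron, where it keeps glucocorticoids away from the mineralocorticoid receptor (Nr3c2). Bound hormone moves the glucocorticoid receptor (Nr3c1) to the nucleus, where it raises transcription of genes such as Fkbp5, Sgk1, Tsc22d3 and Zbtb16.

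The libraries held 24032148 to 43499743 counted reads, except for kidney 2 of animal 17-51 with 4161829. Counts of both kidneys were summed per animal and are given as CPM, that is, scaled to the size of each library by TMM. Epas1, which encodes HIF2α, had 204 CPM in WT and 267 in HIF2aM3 (log2 fold change 0.39 ± 0.11, SE, edgeR adjusted p = 0.0881), and it is not known here if transgene reads count toward this gene. Marker genes of proximal tubule cells summed to 13892 to 15117 CPM in WT and 12094 to 13513 CPM in HIF2aM3, without overlap and lower in HIF2aM3. The largest part of that sum was Slc34a1 (means 7368 and 6377 CPM). Of the 8 markers, 3 had positive and 5 negative log2 fold changes. Marker genes of leukocytes summed to 61.7 to 118 CPM in WT and 111 to 146 CPM in HIF2aM3.

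Of the 9 genes, 2 were higher in HIF2aM3 (Hsd11b1 and Nr3c1), 1 was lower (Fkbp5) and 6 were not called, a gene being called where its adjusted p was under 0.05 in edgeR's quasi-likelihood test. Over all 19564 genes the same test called 3.75% in either direction, 1.93% higher and 1.82% lower. The 9 genes were chosen with earlier results of these data known, so these shares are a background and not a test. The 3 WT and 3 HIF2aM3 animals did not overlap for 5 of the 9 genes, 2 of them higher and 3 lower in HIF2aM3, where 32.0% of all genes tested had no overlap. The 6 libraries of each genotype also did not overlap for 5 of the 9, a count without a share of all genes to set it against. Both kidneys of an animal are not separate replicates, so this count adds no further animals. For Zbtb16 the lowest WT library (3.81 CPM) was just above the highest HIF2aM3 library (3.71 CPM). The median log2 fold change of all genes was 0.0049 with TMM scaling, which centres the genes near 0, and 0.03 with library size alone. Among the transgenic animals, 17-56 lay farthest from the WT mean for 7 of the 9 genes, 17-51 for Fkbp5 and 17-53 for Nr3c2.

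**Figure D1:**
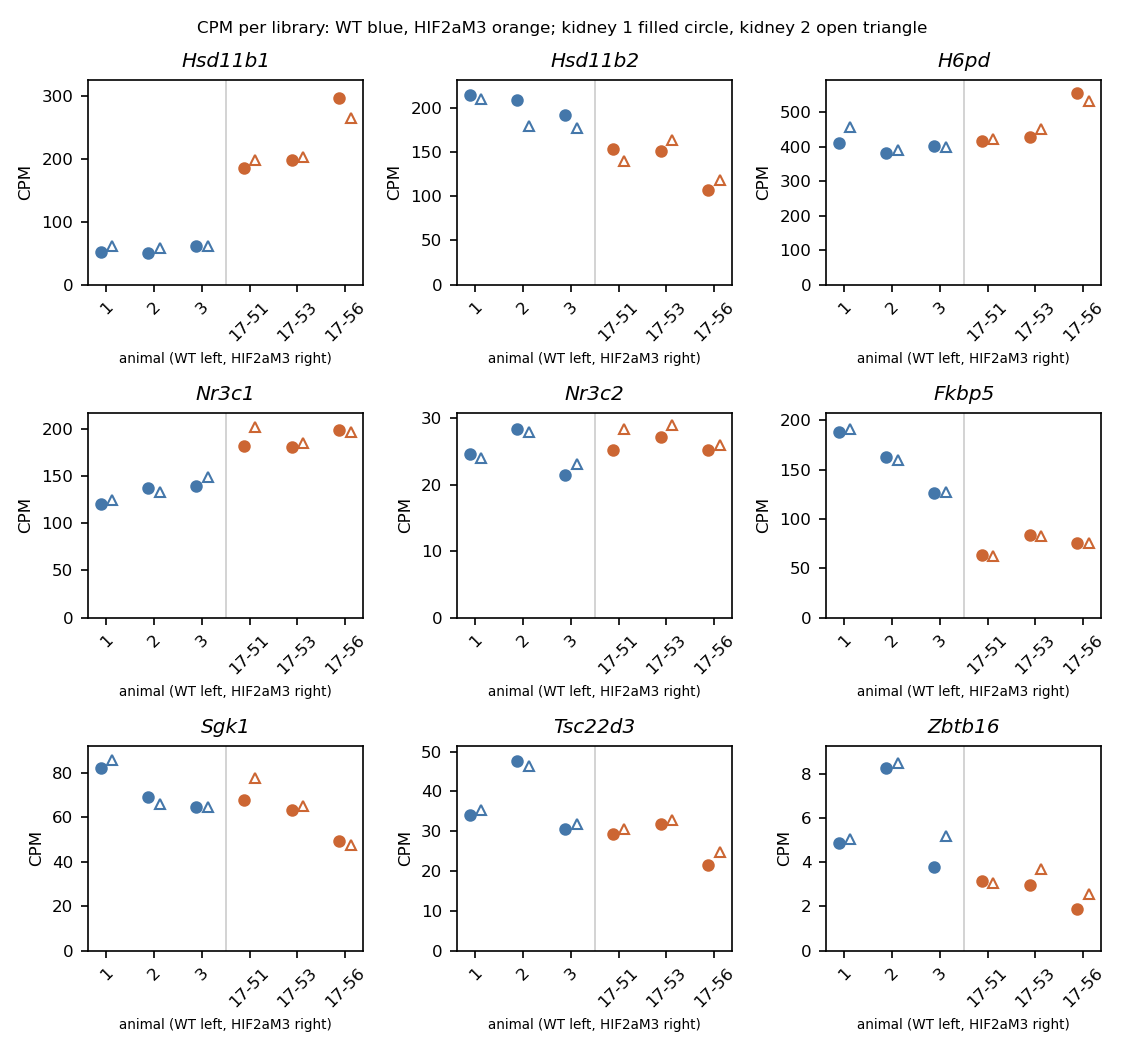
CPM of each gene (vertical axes, from 0) in the 12 libraries, by animal, with WT in blue, HIF2aM3 in orange, kidney 1 as filled circles and kidney 2 as open triangles. Hsd11b1 lies at 50.3 to 61.7 CPM in the WT libraries and 185 to 297 in the HIF2aM3 libraries, and the kidneys of 1 animal lie close together for Fkbp5.

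Hsd11b1 (ENSMUSG00000016194) was the gene with the largest difference among the 9. It was at 56.1, 53.3 and 61.4 CPM in WT animals 1, 2 and 3, and at 186, 200.01 and 282 CPM in animals 17-51, 17-53 and 17-56. Every transgenic animal was thus above every WT animal, with 17-56 above the other two, and the 6 WT libraries (50.3 to 61.7 CPM, median 59.1) did not reach the lowest HIF2aM3 library (185 CPM, median 200.3, highest 297). The means were 56.9 ± 4.08 and 223 ± 51.8 CPM (SD, n = 3), a fold of 3.91 (log2 fold change 1.97 ± 0.16, SE, edgeR adjusted p = 0.00911). Leaving out any 1 animal gave log2 fold changes of 1.76 to 2.07 with adjusted p-values of 0.00039 to 0.0382.

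The window before the start of Hsd11b1 was read for the letters to which hypoxia-inducible factors bind, ACGTG or GCGTG on either strand, and for TGTTCT, one arm of the palindrome that the glucocorticoid receptor binds. Sequences are from RefSeq, build GRCm38.p6, while the counts rest on build mm9. In the 250 bases before the start one match to GCGTG was found, on the opposite strand and beginning 111 bases before the start, and none to ACGTG or TGTTCT. All 250 bases of this window fall in annotated exons, so they do not lie before the start of every annotated transcript. For this reason only the match, in capitals, and its flanks are shown. It lies at chr1:193242455-193242483 on the minus strand.
Hsd11b1 site: tatgaaatccacCACGCaggctgccaggg
Of 32851 such windows 28.2% hold GCGTG, 38.6% either form and 16.1% TGTTCT, so the match is a common one.

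H6pd (ENSMUSG00000028980), the NADPH source of the type 1 enzyme, did not pass the test. It was at 434, 384 and 399 CPM in WT and 418, 439 and 544 CPM in HIF2aM3, and the groups overlapped (406 ± 25.8 and 467 ± 67.6 CPM, SD, n = 3, log2 fold change 0.20 ± 0.11, edgeR adjusted p = 0.286). Animal 17-56 was the highest of the 6, and without it the log2 fold change was 0.08.

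Hsd11b2 (ENSMUSG00000031891), the inactivating enzyme, had 212, 195 and 183 CPM in WT and 151, 157 and 111 CPM in HIF2aM3. All 3 transgenic animals were below all 3 WT animals, and the libraries did not overlap either (176.5 to 215 against 106 to 164 CPM). The means were 197 ± 14.7 and 139.8 ± 24.9 CPM (SD, n = 3), and the log2 fold change of -0.49 ± 0.13 (SE) had an adjusted p of 0.0830 in edgeR and was not called. DESeq2 on the same sums gave an adjusted p of 0.00401, and the authors' deposited table lists a log2 fold change of -0.48 with a q-value of 0.0210. Beside it, the 8 marker genes of collecting duct principal cells, the cells known for Hsd11b2, summed to 318 to 353 CPM in WT and 253 to 274 CPM in HIF2aM3. Of these 8, none was higher and 2 were lower past the threshold: Avpr2, the vasopressin receptor (log2 fold change -0.31, edgeR adjusted p = 0.0431), and Aqp3, a basolateral water channel (-0.30, adjusted p = 0.0453). The median of the 8 was -0.29. With 1 animal left out, Avpr2 kept its call in 1 of 6 fits (without WT 2) and Aqp3 in none (adjusted p up to 0.150 and 0.125), and with 1 library left out they kept it in 6 and 5 of 11. Avpr2 shares exon bases with Arhgap4 on the opposite strand, so its count can hold reads of that gene if strand was not used. The part of these markers in the Hsd11b2 values was not tested.

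The balance of the 2 enzymes was compared within animals as the ratio of their RPKM. These are reads scaled to a gene length and to sequencing depth, as the authors made them. The lengths used were not checked against the transcripts here. In WT, Hsd11b2 had means of 197 CPM and 95.4 RPKM, and Hsd11b1 had 56.9 CPM and 8.26 RPKM. The RPKM of Hsd11b1 thus rest on a larger length than those of Hsd11b2, which lowers the ratio. The ratio of Hsd11b1 to Hsd11b2 was 0.0788, 0.0829 and 0.0996 in WT animals 1, 2 and 3. In animals 17-51, 17-53 and 17-56 it was 0.389, 0.380 and 0.744. In RPKM the inactivating enzyme's transcript was thus the higher of the pair in all 6 animals, by less in the transgenic ones. In CPM, which are not scaled to length, Hsd11b1 was below Hsd11b2 in all 3 WT animals. It was above Hsd11b2 in 17-51, 17-53 and 17-56 (186, 200.01 and 282 against 151, 157 and 111 CPM). Which transcript was the more abundant in HIF2aM3 thus depends on the lengths used. The mean log2 ratio was -3.53 ± 0.178 in WT and -1.06 ± 0.550 in HIF2aM3 (SD, n = 3), a difference of 2.47. A two-sided exact permutation test gave p = 0.1, the smallest that 3 against 3 animals allow.

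**Figure D2:**
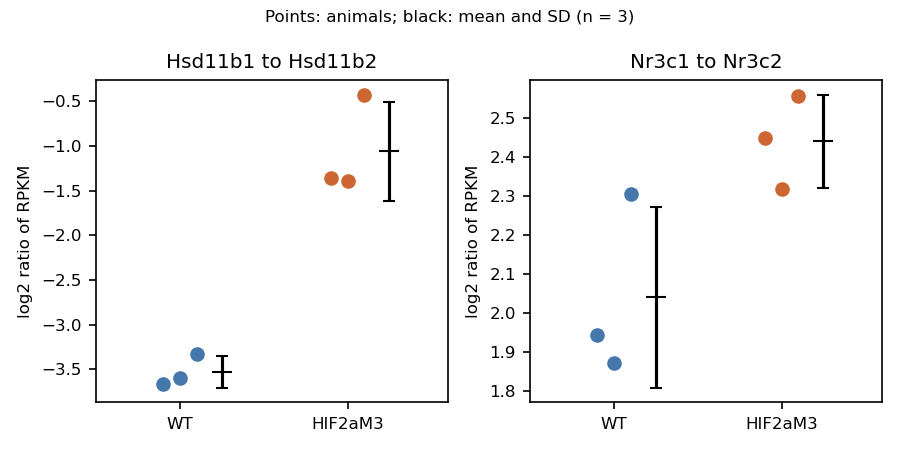
Log2 ratio of RPKM of Hsd11b1 to Hsd11b2 (left) and of Nr3c1 to Nr3c2 (right) per animal, with the mean and SD (n = 3) in black. Both ratios lie higher in all 3 HIF2aM3 animals than in the 3 WT animals, and the vertical axes do not start at 0.

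Nr3c1 (ENSMUSG00000024431), the glucocorticoid receptor, was higher in HIF2aM3 by a smaller and more even step. Its level was 122, 135 and 144 CPM in WT animals 1, 2 and 3 and 185, 183 and 197 CPM in the transgenic animals. No transgenic animal was within the WT range, and the libraries (120.1 to 148 against 181 to 202 CPM) did not overlap. The means were 134 ± 10.75 and 188 ± 7.64 CPM (SD, n = 3), a fold of 1.41 (log2 fold change 0.49 ± 0.07, SE, edgeR adjusted p = 0.0234). The call was lost without WT 1 (0.42, adjusted p = 0.0610), 17-51 (0.50, 0.0792), 17-53 (0.51, 0.0900) or 17-56 (0.46, 0.0580). It was also lost in limma on log2(RPKM + 0.1), where the adjusted p was 0.0658, and on log2(RPKM + 1), where it was 0.0726.

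Nr3c2 (ENSMUSG00000031618), the mineralocorticoid receptor, was at 24.3, 28.1 and 22.3 CPM in WT and 25.7, 28.0 and 25.5 CPM in HIF2aM3. The groups overlapped (24.9 ± 2.98 and 26.4 ± 1.40 CPM, SD, n = 3, log2 fold change 0.08 ± 0.09, edgeR adjusted p = 0.611). The gene shares 247 exon bases with Gm10649 on the opposite strand, whose reads it can hold if strand was not used. The ratio of Nr3c1 to Nr3c2 in RPKM was 3.84, 3.66 and 4.94 in WT and 5.45, 4.98 and 5.88 in HIF2aM3, so animal WT 3 came close to 17-53 without overlap. The mean log2 ratio was 2.04 ± 0.232 and 2.44 ± 0.119 (SD, n = 3), a difference of 0.40 with a two-sided exact permutation p = 0.1. Over the 2 ratios compared, the Benjamini-Hochberg adjusted p was 0.1 for each.

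Fkbp5 (ENSMUSG00000024222) encodes FKBP51, a co-chaperone that lowers the receptor's affinity for hormone and that glucocorticoids induce, and it fell in HIF2aM3. Its level was 189.6, 161 and 127 CPM in WT animals 1, 2 and 3, and 63.2, 83.0 and 75.5 CPM in animals 17-51, 17-53 and 17-56. The WT animals were spread more widely than the transgenic ones, and the lowest WT library (127 CPM, median 161, highest 191) was above the highest HIF2aM3 library (83.4 CPM, median 75.8, lowest 62.1). The means were 159 ± 31.5 and 73.9 ± 10.02 CPM (SD, n = 3), so that WT was 2.15-fold above HIF2aM3 (log2 fold change -1.10 ± 0.16, SE, edgeR adjusted p = 0.0265). Leaving out WT 1 (-0.97, adjusted p = 0.0532), 17-51 (-1.01, 0.0788), 17-53 (-1.20, 0.0820) or 17-56 (-1.12, 0.0719) ended the call, as did limma on log2(RPKM + 0.1), where the adjusted p was 0.0855, and on log2(RPKM + 1), where it was 0.0901.

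The 250 bases before the start of Fkbp5 (chr17:28486150-28486399, minus strand, RefSeq, GRCm38.p6) are shown because they hold a palindrome that is both the hypoxia core and an E-box. No annotated exon overlaps them. The capitals mark CACGTG, which reads ACGTG on both strands, at 169 bases before the start.
Fkbp5: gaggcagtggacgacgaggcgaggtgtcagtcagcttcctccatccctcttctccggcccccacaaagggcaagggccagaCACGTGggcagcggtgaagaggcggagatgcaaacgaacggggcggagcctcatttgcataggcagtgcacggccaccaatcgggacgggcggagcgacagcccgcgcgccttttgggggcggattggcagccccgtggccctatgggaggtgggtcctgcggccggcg
The core ACGTG is found in 16.6% of the 32851 windows and CACGTG in 6.02%. The receptor letters TGTTCT are not among the letters of this window.

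Sgk1 (ENSMUSG00000019970), a kinase that raises sodium channel activity and answers both corticosteroid receptors, did not pass the test. It was at 84.1, 67.7 and 64.4 CPM in WT and 69.0, 64.2 and 48.3 CPM in HIF2aM3. Animals 17-51 and WT 2 were close and the groups overlapped (72.1 ± 10.6 and 60.5 ± 10.8 CPM, SD, n = 3, log2 fold change -0.25 ± 0.15, edgeR adjusted p = 0.347). RefSeq gives Sgk1 6 start sites, and the window before one of them (chr10:21993640-21993889, plus strand) is printed because it holds a full glucocorticoid response element, AGAACA and TGTTCT facing each other across 3 bases, 189 bases before the start. Capitals mark both arms of that element and, near the left end, a CACGTG whose last 2 bases open another TGTTCT.
Sgk1: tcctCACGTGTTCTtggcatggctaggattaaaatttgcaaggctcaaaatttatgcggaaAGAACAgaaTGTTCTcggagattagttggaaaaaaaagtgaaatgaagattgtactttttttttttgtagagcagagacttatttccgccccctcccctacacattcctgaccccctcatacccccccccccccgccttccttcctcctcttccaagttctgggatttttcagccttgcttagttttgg
Of the 32851 windows 3 (0.00913%) hold the full element. No annotated exon overlaps the printed window, and the deposited counts do not separate the start sites.

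Tsc22d3 (ENSMUSG00000031431) encodes GILZ, a leucine zipper protein through which glucocorticoids dampen inflammation. It was at 34.7, 47.0 and 31.1 CPM in WT and 29.4, 32.2 and 22.8 CPM in HIF2aM3. WT 3 lay within the transgenic range, so the groups overlapped (37.6 ± 8.33 and 28.2 ± 4.80 CPM, SD, n = 3, log2 fold change -0.42 ± 0.18, edgeR adjusted p = 0.216). Zbtb16 (ENSMUSG00000066687) encodes PLZF, a transcriptional repressor whose transcript rises strongly with glucocorticoids in many cells. It was the least abundant of the 9 in CPM, at 4.97, 8.37 and 4.53 CPM in WT and 3.14, 3.33 and 2.18 CPM in HIF2aM3. The animals did not overlap, with WT 2 far above the other WT animals. The means were 5.95 ± 2.10 and 2.88 ± 0.617 CPM (SD, n = 3), and the log2 fold change of -1.05 ± 0.27 (SE) had an adjusted p of 0.0788 in edgeR and was not called. Without WT 2 it was -0.73. DESeq2 gave an adjusted p of 0.00269.

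**Figure D3:**
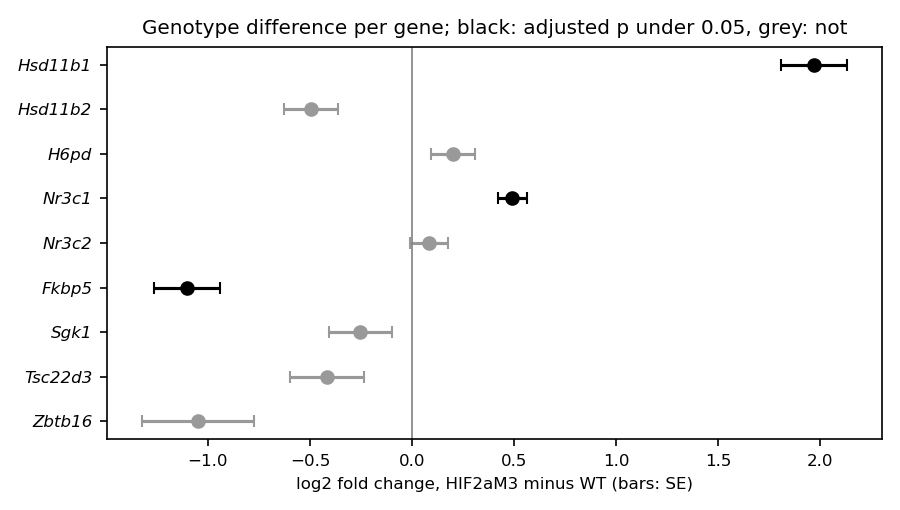
Log2 fold change, HIF2aM3 minus WT, of the 9 genes with bars of 1 SE, black where the edgeR adjusted p was under 0.05 and grey where it was not. Hsd11b1 (1.97) and Nr3c1 (0.49) lie to the right in black and Fkbp5 (-1.10) to the left, while all 3 other response genes lie left of 0 in grey.

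In the authors' RPKM, Hsd11b2 was the highest of the 9 transcripts in both genotypes. This order rests on the gene lengths behind the RPKM, and in CPM H6pd was the highest in both (406 and 467 CPM). In WT the order of mean RPKM was Hsd11b2 (95.4 ± 7.28, SD, n = 3), H6pd (35.1 ± 1.75), Fkbp5 (12.7 ± 2.55), Hsd11b1 (8.26 ± 0.393), Nr3c1 (4.02 ± 0.330), Sgk1 (3.63 ± 0.513), Tsc22d3 (3.45 ± 0.868), Zbtb16 (1.06 ± 0.408) and Nr3c2 (0.983 ± 0.146). The ranges of Nr3c1 and Sgk1, Sgk1 and Tsc22d3, and Zbtb16 and Nr3c2 overlapped. In HIF2aM3 the order of mean RPKM was Hsd11b2 (68.7 ± 11.5, SD, n = 3), H6pd (41.3 ± 5.98), Hsd11b1 (33.1 ± 7.35), Fkbp5 (5.997 ± 0.851), Nr3c1 (5.86 ± 0.224), Sgk1 (3.18 ± 0.632), Tsc22d3 (2.66 ± 0.438), Nr3c2 (1.08 ± 0.0477) and Zbtb16 (0.530 ± 0.107). Hsd11b1 passed Fkbp5 in that order, and its range overlapped that of H6pd, while Fkbp5 overlapped Nr3c1 and Sgk1 overlapped Tsc22d3.

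Both kidneys of an animal gave close values. Kidney 2 against kidney 1, with the animal as a block, called none of the 9 genes, and 1 had an unadjusted p under 0.05 in edgeR. Over all 19034 genes tested this comparison called 17, or 0.0893%. That 1 gene was Zbtb16, higher in kidney 2 in 5 of 6 animals by a log2 fold change of 0.22 ± 0.09 (SE, edgeR adjusted p = 0.527). For all 9 genes the SD between animals of a genotype exceeded that between the kidneys of 1 animal. On the log2 scale the SD within animals ran from 0.0137 (Fkbp5) to 0.201 (Zbtb16) and that between animals from 0.0922 (Nr3c1) to 0.414 (Zbtb16).

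Beyond Fkbp5 and its companions, 25 other genes known to be induced by glucocorticoids were read as a list. Of the 24 tested, none was called in either direction, with a median log2 fold change of -0.25 against 0.0049 for all genes. Their signs were mixed, with 10 positive and 14 negative, and 9 of 24 had no overlap between animals (3 higher, 6 lower), against 32.0% of all genes tested. Tat, a liver enzyme, had too few reads to test. The smallest p was that of Mertk, a receptor by which phagocytes take up dead cells (68.1 ± 5.57 against 56.3 ± 0.881 CPM, SD, n = 3, log2 fold change -0.27 ± 0.07, edgeR adjusted p = 0.0625). Among genes chosen after their values were seen, Pck1, the gluconeogenic enzyme, was at 2779.9, 1504 and 1438 CPM in WT and 1018, 535 and 448 CPM in HIF2aM3. Its animals did not overlap, and its log2 fold change of -1.52 ± 0.39 (SE) had an edgeR adjusted p of 0.0806. The metallothioneins Mt1 and Mt2, metal-binding proteins chosen likewise, had log2 fold changes of -0.67 ± 0.18 (SE, adjusted p = 0.0884) and -0.82 ± 0.22 (SE, adjusted p = 0.0811). Without WT 2, the WT animal highest in both, these were -0.43 (adjusted p = 0.0262) and -0.52 (adjusted p = 0.0151). Genes of the same list lay on the other side, also chosen after their values were seen. Klf9, a transcription factor of the Krüppel family, was at 0.27 ± 0.09 (log2 fold change, SE, edgeR adjusted p = 0.119), Anxa1, an anti-inflammatory annexin, at 0.54 ± 0.18 (adjusted p = 0.132) and Dusp1, a phosphatase of MAP kinases, at 0.49 ± 0.20 (adjusted p = 0.190), each without overlap between animals. Cdkn1a, the cell cycle inhibitor p21, had a log2 fold change of 1.08 ± 0.35 (SE, adjusted p = 0.130) with overlap.

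Corticosterone follows the time of day, so 15 circadian clock genes were read as a list, and none was called. Their median was -0.03 and they summed to 801 to 1036 CPM in WT and 876 to 909 CPM in HIF2aM3, but clock genes peak at opposite times and a median or sum can hide a shift. Among single genes, chosen after their values were seen, WT 2 stood apart from the other WT animals. Dbp, a clock output gene, was at 37.7, 106.7 and 32.3 CPM in WT animals 1, 2 and 3 and 30.2 to 53.6 CPM in HIF2aM3. Per3, a period gene, was at 17.7, 38.5 and 17.6 CPM in WT and 22.8 to 24.9 CPM in HIF2aM3. Ciart, a clock repressor, was at 1.03, 4.54 and 0.961 CPM in WT, and Npas2, a partner of Arntl, was low in WT 2 at 10.8, 3.49 and 15.7 CPM. Without WT 2 the list's median was 0.27, and Dbp, Ciart and Per3 turned from negative to positive log2 fold changes (0.38, 0.34 and 0.41), of which that of Per3 passed the threshold (edgeR adjusted p = 0.0214). WT 2 was also the WT animal highest in Zbtb16, Tsc22d3, Mt1 and Mt2. Other response genes did not follow it, and WT 1 was the highest in Fkbp5 (189.6 against 161 CPM in WT 2) and Sgk1 (84.1 against 67.7). The same held for Pck1 (2779.9 against 1504 CPM) and Per1 (41.3 against 32.2). The part of the time of day in all these values was not tested. The clock gene with the smallest p was Per2 (-0.73 ± 0.28, SE, edgeR adjusted p = 0.167).

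Chaperones hold the receptor ready for hormone. All 12 on the list had negative log2 fold changes, 10 of them without overlap between animals, and 2 passed the threshold, both lower (median -0.25). Over all genes 50.9% of log2 fold changes were positive, 32.0% of genes had no overlap and 3.75% were called. Fkbp4, which encodes FKBP52, the partner that competes with FKBP51 for the receptor, was at 279.8, 255 and 282 CPM in WT and 216, 209.9 and 195 CPM in HIF2aM3. The log2 fold change of Fkbp4 was -0.40 ± 0.07 (SE, edgeR adjusted p = 0.0306). Stip1, which links HSP70 to HSP90, went from 77.9 ± 7.49 to 58.4 ± 2.39 CPM (SD, n = 3, log2 fold change -0.42 ± 0.08, adjusted p = 0.0360). Both calls held in 1 of the 6 fits that left out an animal (without WT 2), with adjusted p-values up to 0.121 for Fkbp4 and 0.130 for Stip1 in the others.

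Of 9 coactivators and corepressors, 1 was higher and none was lower (median 0.04). Ncoa2, a coactivator also called GRIP1 that binds the receptor, was at 107 ± 3.16 and 133 ± 1.12 CPM (SD, n = 3, log2 fold change 0.31 ± 0.05, edgeR adjusted p = 0.0265). Its call held without WT 2 and was lost without any 1 of the 5 other animals, with adjusted p-values up to 0.118. Of the 8 genes that supply NADPH or glucose 6-phosphate, 1 was higher and none lower (median 0.01). This was Me1, cytosolic malic enzyme, at 256 ± 32.1 and 354 ± 19.5 CPM (SD, n = 3, log2 fold change 0.47 ± 0.10, edgeR adjusted p = 0.0450). The Me1 call held without WT 3 and was lost without any 1 of the 5 other animals, with adjusted p-values up to 0.146, and the gene shares 30 exon bases with A330041J22Rik on the opposite strand.

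Among 13 genes of steroid clearance and transport, 10 were tested, of which 1 was higher and 1 lower (median 0.20). Srd5a1, a 5α-reductase that inactivates corticosterone, was at 21.6, 27.5 and 23.7 CPM in WT and 39.97, 41.3 and 45.4 CPM in HIF2aM3. Its log2 fold change was 0.80 ± 0.10 (SE, edgeR adjusted p = 0.0143), the call was lost without 17-51 or 17-53 (adjusted p up to 0.0779), and the gene shares exon bases with Gm17108 on the same strand. Srd5a2, the second 5α-reductase, was chosen after its values were seen. It was at 5.70, 4.77 and 3.83 CPM in WT and 8.65, 11.3 and 24.2 CPM in HIF2aM3, again highest in 17-56, with a log2 fold change of 1.64 ± 0.40 (SE, edgeR adjusted p = 0.0713). Cyp2d9, a male-enriched steroid hydroxylase, was at 137 ± 16.8 and 87.1 ± 5.96 CPM (SD, n = 3, log2 fold change -0.66 ± 0.10, edgeR adjusted p = 0.0235), and this call held only in the fit without WT 2 among those that left out an animal. As one of a family of similar Cyp2d genes, its counts are uncertain where reads fit several copies.

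The mineralocorticoid receptor pathway had 14 genes tested, 12 with negative values, of which none was higher and 1 was lower (median -0.17). Scnn1a, the α subunit of the epithelial sodium channel and a target of both receptors, was at 183, 185 and 202 CPM in WT and 112, 119.6 and 92.9 CPM in HIF2aM3. Its log2 fold change was -0.81 ± 0.10 (SE, edgeR adjusted p = 0.0143), and it lost the call without 17-51 or 17-53 (adjusted p up to 0.0628). The genes Scnn1b and Scnn1g of the other channel subunits are among the 5 genes that stand in 2 of the lists. The distal convoluted and connecting tubule markers summed to 2512 to 2848 CPM in WT and 2012 to 2428 CPM in HIF2aM3, with 1 of 6 lower (Klk1, kallikrein, log2 fold change -0.70, edgeR adjusted p = 0.0452) and none higher. The Klk1 call held in 1 of the 6 fits without an animal (without WT 2, adjusted p up to 0.121 in the others) and 6 of the 11 without a library. The thick ascending limb markers summed to 2547 to 3218 CPM in WT and 2126 to 2320 CPM in HIF2aM3. None of the 4 was past the threshold (lowest p Umod, uromodulin, -0.52, edgeR adjusted p = 0.0512, under 0.05 without WT 1). Umod held the largest part of that sum (means 2172 and 1520 CPM), and all 4 had negative log2 fold changes. The part of these segment markers in the Scnn1a values was not tested.

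**Figure D4:**
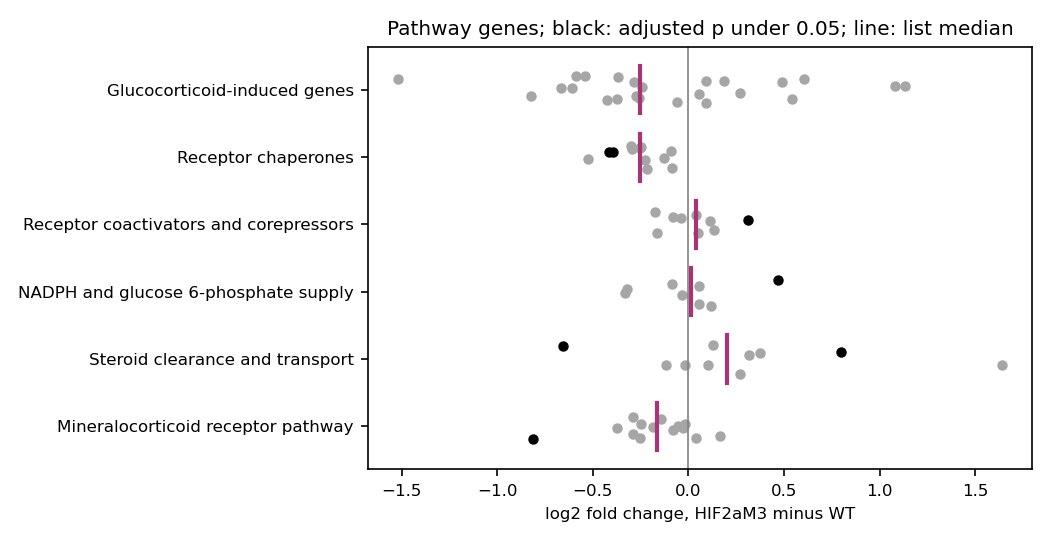
Log2 fold change, HIF2aM3 minus WT, of each tested gene in the 6 pathway lists (1 point per gene, spread vertically at random), black where the edgeR adjusted p was under 0.05, with the list median as a line. All 12 receptor chaperones lie left of 0, while the glucocorticoid-induced genes lie on both sides.

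Markers of other cells were read beside these values. Of the 8 proximal tubule markers 1 was higher and 1 lower (Slc5a12, a lactate transporter, log2 fold change 0.49, and Slc22a6, an organic anion transporter, -0.50, edgeR adjusted p = 0.0483 for each). Both calls held without WT 2 and were lost without any 1 of the 5 other animals (adjusted p up to 0.138 and 0.161). Of these 8 markers 4 lay lower and 1 higher without overlap between animals, against 32.0% of all genes tested without overlap. The median of the 8 was -0.11. The transgene promoter is active in these cells, and the part of their summed level in the values above was not tested. Of 9 leukocyte markers 1 was higher (Csf1r, a macrophage receptor, 0.58 ± 0.10, SE, edgeR adjusted p = 0.0349), none was lower and the median was 0.29. The median was 0.01 without 17-56, 0.08 without its kidney 2 library alone, 0.03 without WT 1 and 0.57 without WT 2. The Csf1r call held without WT 2 or WT 3 and was lost without WT 1, 17-51, 17-53 or 17-56 (adjusted p up to 0.124), and its exons overlap those of Hmgxb3 on the opposite strand. Hsd11b1 and Nr3c1 are known in macrophages too, and the part of leukocytes in their values was not tested. Adrenal cortex markers summed to 6.65 to 7.46 CPM over all animals, with none of 4 tested past the threshold, and the adrenal enzyme Cyp11a1 had 2 reads over the WT libraries and 4 over the HIF2aM3 libraries. The smallest p of these 4 was that of Mc2r, the corticotropin receptor (0.47 ± 0.24, SE, edgeR adjusted p = 0.269), which was -0.12 from kidney 1 only, 1.36 from kidney 2 only and 0.27 without the WT 3 kidney 2 library. Over all lists 13 of 126 distinct genes were called, 5 higher and 8 lower, against 3.75% of all genes tested. The lists were chosen with earlier results of these data known, so this contrast is not a test of them.

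Genes with the most similar course over the 12 libraries were found by the root mean square (RMS) difference of log2(CPM + 0.5), each gene centred, among 15301 genes. Nearest to Hsd11b1 were Il5ra (RMS difference 0.265), Slitrk4 (0.270), Msantd3 (0.297), Clec2h (0.364) and Hs6st2 (0.373). Their log2 fold changes, HIF2aM3 minus WT, ran from 1.31 (Clec2h) to 2.73 (Slitrk4). Nearest to Nr3c1 were Gm13217 (0.0622), Fgd4 (0.0669), Mpdz (0.0734), Pdgfc (0.0751) and Pdgfd (0.0824). Nearest to Fkbp5 were Lrp12 (0.136), Noct (0.151), Gpt (0.175), Rcan1 (0.200) and Bdnf (0.213). No gene came as close to Hsd11b1 or to Fkbp5 as the 5 nearest genes did to Nr3c1. The RMS difference is not scaled for how far a gene moves.

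The authors' deposited table gives q-values under 0.05 for 5 of the 9 genes and for 3445 of 27412 genes. In the authors' deposited table these 5 are Hsd11b1 (log2 fold change 2.00, q = 4.86e-05), Nr3c1 (0.54, 0.000589), Fkbp5 (-1.08, 0.00157), Hsd11b2 (-0.48, 0.0210) and Zbtb16 (-0.99, 0.0411). Its test took the libraries as samples, so that both kidneys of an animal counted separately.

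**Figure D5:**
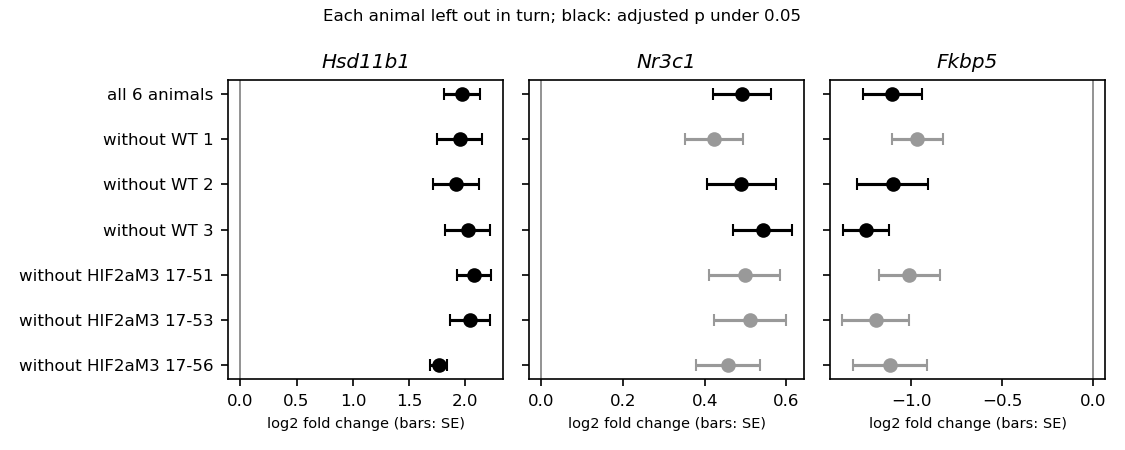
Log2 fold change, HIF2aM3 minus WT, of Hsd11b1, Nr3c1 and Fkbp5 with all 6 animals and with each animal left out in turn (bars: SE), black where the edgeR adjusted p was under 0.05. The horizontal scales differ, Hsd11b1 stays black throughout (1.76 to 2.07), and Nr3c1 and Fkbp5 turn grey without WT 1, 17-51, 17-53 or 17-56.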

How the data were processed

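RNA of outer kidney cortex was sequenced after TruSeq preparation, per the labels' protocols, and the build was mm9, as the submitters' processing notes say. Not given in the sources used here are the aligner, counting program, annotation and use of strand. The authors deposited raw read counts per Ensembl gene. The authors also deposited RPKM values, which include about 1 added read per gene, and a log2 fold change and q-value, per the file headers. Symbols came from GENCODE M21 names and matched 24630 IDs, leaving 2782 without a symbol. Members and gene lists were chosen with earlier results of these data known.

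For each animal the counts of both kidneys were added, and edgeR 4.0.16 (R 4.3.3) was run on the sums by two-sided quasi-likelihood tests after filterByExpr and TMM scaling, with Benjamini-Hochberg adjustment and a threshold of 0.05. The kidney comparison used 12 libraries with the animal as a block, since the labels tie kidneys to animals. Replicates are animals, with 3 per group, and the genotype p-values weigh a difference against the spread between animals of a group. Those of the kidney comparison weigh it against the spread left after the animal is blocked. In both, edgeR moderates the spread over genes. Named genes were all 9 members, up to 4 genes past the threshold from each list by smallest p (or, with fewer than 2 past it, the 1 of smallest p), and for each called member the 5 genes with the most similar course and a mean of at least 1 CPM. Alternatives were DESeq2 1.42.0, limma 3.58.1 on log2(RPKM + 0.1) and log2(RPKM + 1) of genes with a mean RPKM of at least 0.1, RLE factors, library size alone, other count filters, 12 libraries as replicates, single kidneys, and each animal left out. Leaving out each single library was added after the data were seen. No 2 libraries agreed within sampling noise (lowest chi-square per degree of freedom 1.77). The test was also run on simulated data with the same spread for every gene. That run does not show how the test does on genes whose animals vary more.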

Additional observations from a re-analysis of the deposited data

How the results depend on the processing

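Of the 9 genes, 3 were called with all animals and edgeR. DESeq2 called 5, limma on log2(RPKM + 0.1) and on log2(RPKM + 1) called 1 each, and the 12 libraries taken as replicates called 6, while leaving out 1 animal gave 1 to 3. All 11 fits without a single library called the same 3. Hsd11b1 was called under every alternative run, and no sign of the 9 genes turned. For all genes the count was 733, against 2074 with DESeq2, 46 and 35 with limma, 4829 with 12 libraries, 337 in kidney 2 only, 480 without the library of WT 1 kidney 2, 479 without that of 17-56 kidney 1, and 11 (without 17-53) to 1549 (without WT 2) with 1 animal left out. Of the list genes 13 were called, against 34 with DESeq2, 20 with no count filter, 0 and 0 with limma, 52 with 12 libraries, 7 in kidney 2 only, 8 without WT 2 kidney 1, 7 without 17-56 kidney 1, and 0 to 23 with 1 animal left out. The split of higher and lower calls, 377 and 356, was 376 and 249 with library size alone, 439 and 564 with no count filter, and 343 and 401 at a mean of at least 1 CPM. Mc2r turned to -0.12 in kidney 1 only and was 1.36 in kidney 2 only. With 1 animal left out, Dbp ran from -0.67 (without WT 3) to 0.38 (without WT 2), Ciart from -1.16 to 0.34 and Per3 from -0.26 to 0.41, with the same animals at the ends, and Per3 was 0.050 and 0.0052 in limma with 0.1 and 1 added. In the kidney comparison, 17 genes were called with the animal block, 0 without the replicate block, 9 with library size alone and 4 to 91 with 1 animal left out, none of the 9 members among them. Why counts moved was not tested. Fits with 1 animal left out have fewer degrees of freedom, and the part of this in the counts was not tested either. No paired analysis of genotype was possible because the groups share no animal numbers. With 3 animals a group, an interval of differences that missed the threshold stays wide, and Zbtb16 at 2.18 to 8.37 CPM is the thinnest of the 9 in reads.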
